A study of Mus musculus with 12 samples.

Results

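The sinusoidal endothelium of the liver carries a set of scavenger and lectin receptors that set it apart from other endothelium, and 9 genes of this set were followed here across sinusoidal endothelial and stellate cell fractions of normal and fibrotic mouse liver. The set was given by name, as the stabilins Stab1 and Stab2, the hyaluronan receptor Lyve1, the mannose receptor Mrc1, the Fc receptor Fcgr2b, the C-type lectins Clec4g and Clec1b, and the secreted or membrane-bound products Oit3 and Dnase1l3. All 9 were found by symbol among 23472 gene entries of the count table, and all 9 were among the 14489 genes expressed highly enough to be tested.

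Liver sinusoidal endothelial cells line the sinusoids with a fenestrated, basement membrane-poor endothelium and take up more waste from the blood, for their number, than most other cells. They do so by clathrin-mediated endocytosis through a few receptors of broad specificity. The stabilins bind hyaluronan, advanced glycation products and procollagen propeptides, the mannose receptor binds mannose-ended glycoproteins and collagen chains, and Fcgr2b takes up small immune complexes. When the liver scars, the endothelium loses fenestrae and gains features of a continuous capillary, a change known as capillarization.

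The libraries came from C57BL/6 male mice, started at 6 to 8 weeks of age and 12 to 14 weeks old at the end. The F-SEC and F-HSC groups (fibrotic) came from mice injected into the peritoneum with carbon tetrachloride (CCl4), a hepatocyte toxin, at 0.6 µl per g body weight as a 15% solution in olive oil, 2 times a week for 6 weeks. The Q-SEC and Q-HSC groups (quiescent) came from control mice given olive oil. Livers were digested with collagenase and separated on a density gradient, after which SEC were taken with magnetic beads and HSC from the gradient alone, so that the HSC fraction had no positive selection. Each of the 4 groups had 3 libraries, and no source gives the number of mice behind a library. The p-values therefore rest on how much the libraries of a group varied, and part of that variation can be technical. The study names Lyve1, Stab2 and Oit3 among its endothelial markers. From its single-cell and bulk RNA-seq it also reports lower expression of genes associated with sinusoidal endothelium in fibrotic liver. The direction of the set is therefore not independent of that choice and that report.

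Between 8714228 and 13068564 reads per library were counted to gene entries. Levels are given as read counts scaled to library size (CPM) after TMM scaling, a scaling that takes most genes as unchanged, in the order of libraries 1, 2 and 3 of a group. Changes are log2 fold changes ± SE with adjusted p-values from the quasi-likelihood test of edgeR over all tested genes, and a gene was called when its adjusted p was under 0.05. At these depths 3 counts, taken as the lowest level that could be told from none, stood for 0.229 to 0.335 CPM, far below every value of the 9 genes.

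The fractions were mixtures by their markers. The summed level of 10 pan-endothelial markers (Pecam1, Cdh5, Tie1 and others) was 7251 to 10117 CPM in F-SEC and 15715 to 20240 CPM in Q-SEC, and still 2190 to 3203 CPM in F-HSC and 5353 to 8736 CPM in Q-HSC. The summed level of 10 Kupffer cell and macrophage markers was 1945 to 3755 CPM in F-SEC and 303 to 918 CPM in Q-SEC, but 5674 to 15441 CPM in F-HSC and 7528 to 21172 CPM in Q-HSC. The 8 stellate cell markers summed to 3205 to 5671 CPM in F-SEC and 126 to 2347 CPM in Q-SEC, where library 1 stood apart from 187 and 126 CPM in the other two, and to 1546 to 2540 CPM in F-HSC and 609 to 3213 CPM in Q-HSC. All F-HSC libraries thus lay below all F-SEC libraries for the stellate marker sum. This did not hold for each marker. Reln was at 475, 841 and 929 CPM in F-HSC, against 604 CPM in F-SEC library 1. None of the endothelial, macrophage and stellate markers was at 0 in a whole group.

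Upstream sequences are shown for 4 genes, the stabilin pair, which form a family of their own, and the lectins Clec4g and Clec1b, whose profiles lay furthest apart of all 36 pairs of the 9 genes. Each is the 250 bases before the transcription start in RefSeq (GRCm38.p6), read 5′ to 3′ on the strand of the gene. Capitals mark matches to AGGAAG or its reverse complement CTTCCT, a core bound by ETS factors, a family that includes the endothelial factor Erg.
Stab1 (chr14:31168642-31168891, minus strand): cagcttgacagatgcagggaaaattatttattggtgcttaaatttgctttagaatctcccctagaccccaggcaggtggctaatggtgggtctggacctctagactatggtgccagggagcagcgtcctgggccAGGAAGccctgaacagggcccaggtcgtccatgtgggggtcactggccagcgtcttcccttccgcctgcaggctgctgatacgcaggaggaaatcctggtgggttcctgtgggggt
Stab2 (chr10:87007943-87008192, minus strand): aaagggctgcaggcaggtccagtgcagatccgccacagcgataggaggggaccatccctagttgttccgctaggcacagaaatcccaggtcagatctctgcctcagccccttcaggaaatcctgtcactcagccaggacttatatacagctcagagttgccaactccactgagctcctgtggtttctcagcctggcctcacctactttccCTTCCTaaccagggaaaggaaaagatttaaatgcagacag
Clec4g (chr8:3720652-3720901, minus strand): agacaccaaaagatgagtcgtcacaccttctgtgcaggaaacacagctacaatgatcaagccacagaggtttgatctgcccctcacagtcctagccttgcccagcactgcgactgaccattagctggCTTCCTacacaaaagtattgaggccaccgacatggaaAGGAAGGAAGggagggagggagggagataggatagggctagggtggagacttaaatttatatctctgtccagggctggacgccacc
Clec1b (chr6:129397047-129397296, plus strand): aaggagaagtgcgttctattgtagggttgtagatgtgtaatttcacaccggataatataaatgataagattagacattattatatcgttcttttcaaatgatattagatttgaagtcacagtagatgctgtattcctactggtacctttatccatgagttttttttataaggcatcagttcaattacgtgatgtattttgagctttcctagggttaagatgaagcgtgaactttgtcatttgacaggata

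The table of upstream sequences matched 6 of the 9 genes (Stab1, Stab2, Mrc1, Fcgr2b, Clec4g and Clec1b). The letters AGGAAG, on either strand, stood in 4 of these 6, once each in Stab1 and Stab2 and 3 times each in Mrc1 and Clec4g, where in Clec4g a pair of the matches overlaps. They stood in 29.5% of all 32851 upstream sequences of this length. The letters AGATAA, searched for GATA factors on either strand, stood in none of the 6, against 9.99% of all upstream sequences. The letters TGCTGAC, searched likewise for factors of the Maf family, stood in none of the 6, against 3.81% of all. The sequence before Clec1b was poor in G and C, at 33.2%, against 57.2% before Stab1, 53.2% before Stab2, 52.0% before Clec4g and a median of 52.4% over all. These matches describe letters only and were not tested as sites.

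Per length of transcript, the lectin Clec4g was the most abundant of the 9 in every group. It averaged 1069 ± 370 CPM per kb in F-SEC, 2521 ± 320 in Q-SEC, 213 ± 73.2 in F-HSC and 854 ± 249 in Q-HSC (SD, n = 3 each). Fcgr2b came next in all 4 groups, with 523 ± 134 CPM per kb in F-SEC and 1504 ± 98.8 in Q-SEC. The ranges of Clec4g and Fcgr2b did not overlap in F-SEC, Q-SEC and Q-HSC but did in F-HSC. In Q-SEC, Fcgr2b lay clear of Dnase1l3 (1105 ± 142 CPM per kb), while Dnase1l3 and Oit3 (791 ± 186), Oit3 and Stab2 (642 ± 61.7), Stab2 and Mrc1 (619 ± 49.6), and Mrc1 and Stab1 (608 ± 79.9) overlapped as neighbours. Lyve1 (258 ± 24.2) and Clec1b (157 ± 27.5) lay apart from these and from each other at the low end.

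In F-SEC, no neighbours between Fcgr2b and Mrc1 in this order were apart beyond their ranges, and Clec1b stood alone below them at 68.5 ± 28.4 CPM per kb. In F-HSC, every neighbour overlapped with the next, down to Lyve1 at 53.6 ± 31.5 CPM per kb. In Q-HSC, all neighbours below Clec4g overlapped, and Lyve1 was again the lowest at 101 ± 34.3 CPM per kb. Together the 9 genes held 0.750 to 1.09% of gene counts in F-SEC and 2.32 to 2.48% in Q-SEC, and 0.186 to 0.432% in F-HSC and 0.863 to 1.34% in Q-HSC.

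**Figure D1:**
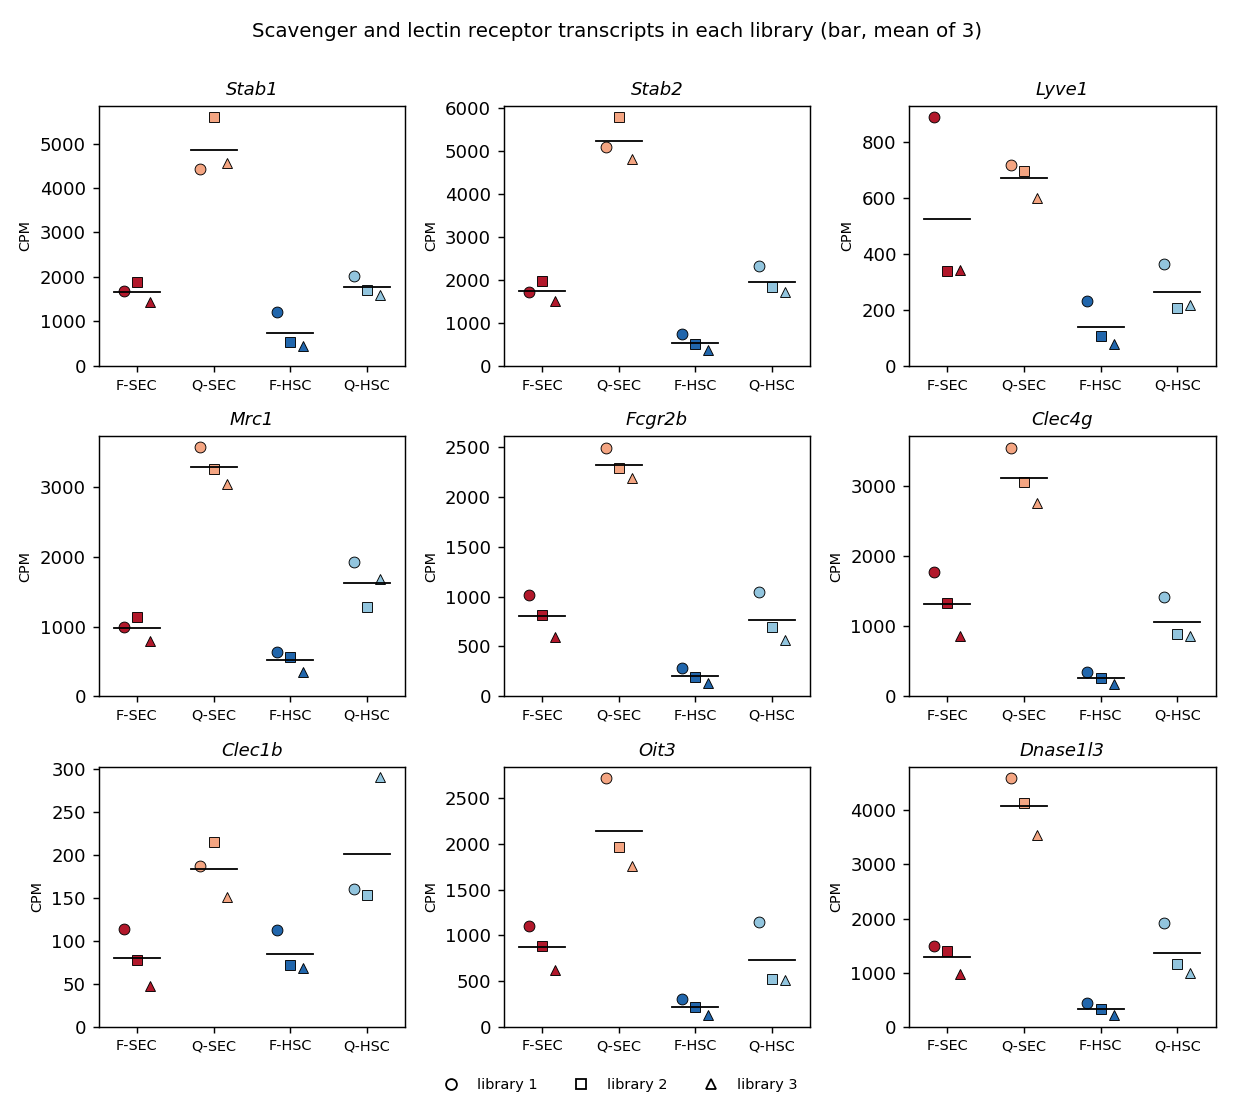
CPM (linear axis from 0) of each of the 9 genes in each of the 12 libraries, by group from left to right F-SEC, Q-SEC, F-HSC and Q-HSC, with the symbol for the library number and a bar for the mean of 3. For all genes but Lyve1 the 3 F-SEC points lie below the 3 Q-SEC points and the 3 F-HSC points below the 3 Q-HSC points, and for Clec1b the SEC and HSC points overlap.

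The first comparison asked how CCl4 changed the receptors in the SEC fraction. Stab1, a scavenger receptor that also sorts cargo within the cell, was at 1688, 1879 and 1438 CPM in F-SEC, against 4420, 5594 and 4571 CPM in Q-SEC. Stab2, the main hyaluronan clearance receptor of the sinusoid, was at 1719, 1964 and 1516 CPM in F-SEC, against 5078, 5777 and 4804 CPM in Q-SEC. Neither stabilin overlapped between the groups, and both were at about the same share of their Q-SEC level. Stab1 fell by 1.54 ± 0.34 on the log2 scale (adjusted p = 0.0102) and Stab2 fell by 1.59 ± 0.27 (adjusted p = 0.00301), to 34.3% and 33.2% of the Q-SEC level.

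Mrc1, the mannose receptor, had the largest fall of the 9. It was at 988, 1140 and 798 CPM in F-SEC, against 3569, 3264 and 3045 CPM in Q-SEC, a log2 change of -1.76 ± 0.26 (adjusted p = 0.00188) that left 29.6% of the Q-SEC level. Fcgr2b, the inhibitory Fc receptor that in sinusoidal endothelium clears immune complexes, was at 1012, 817 and 598 CPM in F-SEC, against 2493, 2292 and 2193 CPM in Q-SEC. It fell by 1.52 ± 0.32 on the log2 scale (adjusted p = 0.00769).

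Dnase1l3, a secreted DNase that degrades DNA in chromatin and vesicles, was at 1486, 1403 and 973 CPM in F-SEC, against 4590.2, 4126 and 3542 CPM in Q-SEC, a log2 change of -1.67 ± 0.32 (adjusted p = 0.00547). Oit3, a zona pellucida domain protein first described in liver, was at 1106, 888 and 617 CPM in F-SEC, against 2719, 1967 and 1757 CPM in Q-SEC, a log2 change of -1.30 ± 0.40 (adjusted p = 0.0388). For both genes all F-SEC libraries lay below all Q-SEC libraries, with the widest spread within groups for Oit3.

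Clec4g, a lectin of sinusoidal and lymph node endothelium also called LSECtin, was at 1770.1, 1333 and 857 CPM in F-SEC, against 3536, 3051 and 2755 CPM in Q-SEC. It fell by 1.24 ± 0.33 on the log2 scale (adjusted p = 0.0229). Clec1b, also called CLEC-2, a receptor for podoplanin known on platelets and, in mouse liver, on Kupffer cells, was at 114, 78.1 and 48.0 CPM in F-SEC, against 187, 215 and 151 CPM in Q-SEC. It fell by 1.20 ± 0.35 (adjusted p = 0.0310). The 6 platelet markers summed to 34.9 to 40.1 CPM in F-SEC and 12.7 to 23.1 CPM in Q-SEC. Of the 4 tested, only Pf4 was called. It was higher, at 20.3, 10.3 and 19.3 CPM in F-SEC, against 2.45, 1.67 and 2.27 CPM in Q-SEC. Gp1ba was at 2.70, 4.84 and 3.41 CPM in F-SEC, against 4.57, 4.71 and 3.24 CPM in Q-SEC. The part of platelets in the level of Clec1b was not tested.

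Lyve1, a hyaluronan receptor of lymphatic and sinusoidal endothelium, was the exception. It was at 890, 340 and 344 CPM in F-SEC, against 717, 697 and 599 CPM in Q-SEC, so that library 1 of F-SEC lay above all of Q-SEC and the other F-SEC libraries below. The log2 change was -0.36 ± 0.46 (adjusted p = 0.599), with a 95% confidence interval from -1.36 to 0.65. Without F-SEC library 1 it was -0.97 (adjusted p = 0.153), and over all omissions of 1 library it ran from -0.97 to -0.04 with no call. In libraries 2 and 3 of all groups alone it was -0.87 (adjusted p = 0.0129).

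In all, 8 of the 9 genes were called lower in F-SEC than in Q-SEC and none higher, where 12.1% of all tested genes were called lower. The groups did not overlap for the same 8, where 24.0% of all tested genes were lower without overlap. The median log2 change of the 9 was -1.52, against -0.05 over all tested genes. In the same libraries the summed pan-endothelial markers were lower in F-SEC, as given above, and the median log2 change of the 10 was -0.74. The summed Kupffer cell and macrophage markers and the summed stellate markers were higher. The median log2 change was 2.64 over the 8 stellate markers, of which 3 were called higher. It was 2.09 over the 10 Kupffer cell and macrophage markers. Of these, 6 were called higher (Cd5l, C1qa, C1qb, C1qc, Emr1 and Lyz2), but Clec4f, Vsig4, Timd4 and Folr2 were not called. Of all tested genes 11.8% were called higher. Clec4f was at 121, 401 and 110 CPM in F-SEC, against 231, 145 and 51.3 CPM in Q-SEC. The part of these cells in the result was not tested, and in bulk libraries fewer cells of a type and less RNA per cell cannot be told apart. The calls of Oit3, Clec1b and Clec4g were the least firm, since without F-SEC library 3 their adjusted p-values became 0.153, 0.118 and 0.103 and that of Stab1 0.0503, leaving 4 genes called, and leaving out F-SEC library 2 or any of the Q-SEC libraries left 5.

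Set against the pan-endothelial marker counts of each library, the falls were smaller. When counts were scaled to the geometric mean of the 10 pan-endothelial markers, all of which are counted in these same libraries, 4 genes were called lower in F-SEC, where 0.538% of all tested genes were called lower and 45.8% higher. This scaling moved the median log2 change of all tested genes to 0.80. On it Mrc1 changed by -0.93 ± 0.26 (adjusted p = 0.0114), Dnase1l3 by -0.84 ± 0.25 (adjusted p = 0.0159), Stab2 by -0.76 ± 0.27 (adjusted p = 0.0360) and Fcgr2b by -0.71 ± 0.27 (adjusted p = 0.0422).

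Mrc1 thus stood at 1.72, 1.97 and 1.88 counts per mean endothelial marker count in F-SEC, against 3.36, 3.60 and 3.64 in Q-SEC. Stab1 stood at 2.95, 3.25 and 3.39 in F-SEC, against 4.16, 6.17 and 5.46 in Q-SEC, without overlap but not called (log2 change -0.72 ± 0.35, adjusted p = 0.104). The log2 changes of Clec4g (-0.43 ± 0.27), Oit3 (-0.47 ± 0.29) and Clec1b (-0.40 ± 0.39) were not called either. Lyve1 turned to a positive value of 0.45 ± 0.40 (adjusted p = 0.354). The pan-endothelial markers were themselves not constant under TMM scaling, where 6 of the 10 were called lower and none higher in F-SEC.

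**Figure D2:**
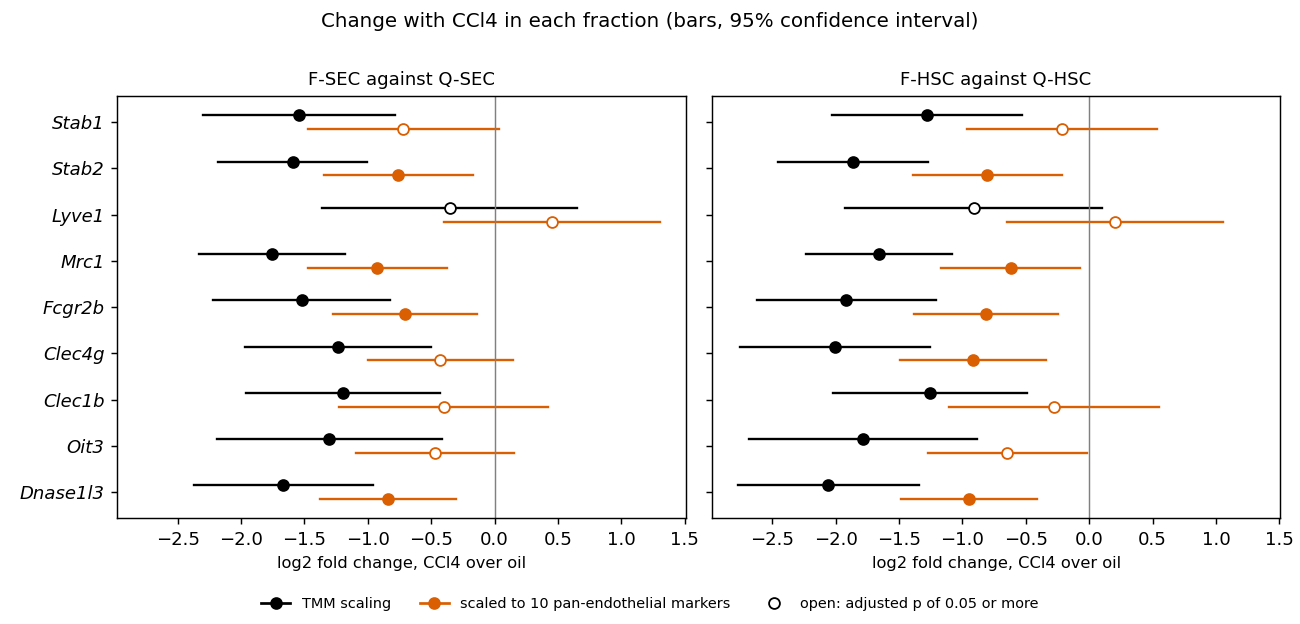
Log2 fold change with CCl4 (CCl4 over oil) of the 9 genes in the SEC fraction (left) and HSC fraction (right) under TMM scaling (black) and scaling to 10 pan-endothelial markers (orange), with 95% confidence intervals and open symbols for an adjusted p of 0.05 or more. Under TMM scaling 8 of 9 genes are called lower in each fraction, and on the endothelial scale 4 genes in SEC and 5 in HSC.

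The same question was put to the HSC fraction, where the receptors were present at lower levels beside the endothelial markers. Stab2 was at 735, 511 and 365 CPM in F-HSC, against 2314, 1835 and 1714 CPM in Q-HSC. Stab1 was at 1216, 529 and 445 CPM in F-HSC, against 2017, 1710 and 1588 CPM in Q-HSC. The groups did not overlap for either gene, but Stab1 in F-HSC library 1 lay well above the other F-HSC libraries and also above Stab2 in the same library. Stab2 fell by 1.86 ± 0.27 on the log2 scale (adjusted p = 0.00133) and Stab1 by 1.28 ± 0.34 (adjusted p = 0.0169).

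Dnase1l3 had the largest fall in this fraction, with 430, 325 and 220.2 CPM in F-HSC, against 1918, 1163 and 984 CPM in Q-HSC (log2 change -2.06 ± 0.33, adjusted p = 0.00182). Clec4g was at 352, 266 and 171 CPM in F-HSC, against 1410, 891 and 864 CPM in Q-HSC (log2 change -2.00 ± 0.34, adjusted p = 0.00242). Fcgr2b was at 284, 194 and 134 CPM in F-HSC, against 1045, 697 and 565 CPM in Q-HSC (log2 change -1.92 ± 0.32, adjusted p = 0.00230). These secreted, lectin and Fc receptor genes were left with 24.0, 24.9 and 26.5% of the Q-HSC level.

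Oit3 was at 300.1, 211 and 124 CPM in F-HSC, against 1148, 527 and 508 CPM in Q-HSC, a log2 change of -1.78 ± 0.41 (adjusted p = 0.00886). Mrc1 was at 634, 562 and 350 CPM in F-HSC, against 1920.3, 1281 and 1681 CPM in Q-HSC, a log2 change of -1.66 ± 0.26 (adjusted p = 0.00182). Clec1b was at 112, 71.7 and 69.0 CPM in F-HSC, against 160, 154 and 291 CPM in Q-HSC, a log2 change of -1.26 ± 0.35 (adjusted p = 0.0198). No F-HSC library reached a Q-HSC library for these genes, and for Clec1b the highest value of all 12 libraries was that of Q-HSC library 3. Lyve1 was at 233, 107 and 79.1 CPM in F-HSC, against 366, 206 and 217 CPM in Q-HSC, and the groups overlapped through F-HSC library 1 (log2 change -0.91 ± 0.46, adjusted p = 0.151). Without that library the log2 change of Lyve1 was -1.44 (adjusted p = 0.0385).

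Again 8 of the 9 genes were called lower with CCl4 and none higher, where 17.6% of all tested genes were called lower. The same 8 did not overlap between F-HSC and Q-HSC, where 25.3% of all tested genes were lower without overlap. The median of the 9 was -1.78, against -0.02 over all tested genes. In the same libraries 9 of 10 pan-endothelial markers were called lower in F-HSC. The 7 hepatocyte markers summed to 10228 to 25454 CPM in F-HSC and 2260 to 5840 CPM in Q-HSC. Of the 10 Kupffer cell and macrophage markers, Clec4f, Timd4 and Folr2 were called lower and none higher, with a median log2 change of -0.53. Of the 8 monocyte and scar-associated macrophage markers, 5 were called higher and none lower, with a median of 2.20. Of all tested genes 14.7% were called higher. The part of any of these cells in the result was not tested. The call of Stab1 was lost without F-HSC library 2 (adjusted p = 0.0609) or library 3 (adjusted p = 0.0614), and that of Clec1b without F-HSC library 2 (adjusted p = 0.0682) or 3 (adjusted p = 0.0791) or Q-HSC library 3 (adjusted p = 0.0932). Scaled to the pan-endothelial markers, 5 genes were called lower, against 1.33% of all tested genes called lower and 60.9% higher. These were Dnase1l3 (-0.95 ± 0.25), Clec4g (-0.92 ± 0.27), Fcgr2b (-0.82 ± 0.27), Stab2 (-0.80 ± 0.27) and Mrc1 (-0.62 ± 0.26) on the log2 scale, while Lyve1 turned to 0.20 ± 0.40 and the median of all tested genes moved to 1.03. Stab1 was at -0.21 ± 0.35 on this scale.

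Whether CCl4 acted differently on the genes in SEC and HSC was tested as the difference between these changes. None of the 9 differences was called by edgeR, where 0.235% of all tested genes were called as lower and 0.566% as higher in SEC than in HSC, nor on the endothelial scale, where the shares were 0.0069% and 0.0%. At an unadjusted p under 0.05 the count was 0 of 9 with edgeR, DESeq2 and limma-voom alike. The largest was that of Clec4g, at 0.77 ± 0.47 on the log2 scale (adjusted p = 0.417, 95% confidence interval from -0.26 to 1.79). The smallest in size was that of Clec1b, at 0.06 ± 0.48 (adjusted p = 0.966) with an interval from -1.01 to 1.12, wide enough to hold sizeable differences in either direction. Mrc1 (-0.10 ± 0.36), Stab2 (0.27 ± 0.37) and Stab1 (-0.26 ± 0.48) lay nearer to 0 than Oit3 (0.48 ± 0.56) and Lyve1 (0.56 ± 0.65), and Fcgr2b and Dnase1l3 had the same difference of 0.39 ± 0.44. No alternative fit called any of the 9 differences.

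The next comparisons set SEC against HSC at equal treatment. In CCl4-treated mice 8 of the 9 genes were called higher in F-SEC than in F-HSC (12.6% of all tested genes were called higher), without overlap for the same 8 (21.6%). Clec4g differed most, by a log2 value of 2.33 ± 0.35 (adjusted p = 0.00149), a 5.02-fold higher level in F-SEC, and Oit3 was 4.11-fold higher (2.04 ± 0.41, adjusted p = 0.00534). Fcgr2b (1.99 ± 0.32), Dnase1l3 (1.98 ± 0.32), Lyve1 (1.91 ± 0.47) and Stab2 (1.69 ± 0.27) followed. Stab1 (1.19 ± 0.34, adjusted p = 0.0263) and Mrc1 (0.92 ± 0.26, adjusted p = 0.0240) differed less.

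In oil-treated mice 8 genes were likewise called higher in Q-SEC than in Q-HSC (15.5% of all tested genes), without overlap for the same 8 (25.0%). The log2 differences lay close together, from 1.35 ± 0.46 for Lyve1 (adjusted p = 0.0483) to 1.60 ± 0.32 for Fcgr2b (adjusted p = 0.00362), except for Mrc1 at 1.02 ± 0.26 (adjusted p = 0.0124). These were 2.02-fold to 3.02-fold higher levels in Q-SEC.

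Clec1b was the gene not called between fractions under TMM scaling. Its log2 difference was -0.07 ± 0.34 between F-SEC and F-HSC (adjusted p = 0.898, interval from -0.83 to 0.68) and -0.13 ± 0.34 between Q-SEC and Q-HSC (adjusted p = 0.803, interval from -0.88 to 0.62). Per endothelial marker count it was lower in SEC in both conditions, at 0.200, 0.135 and 0.113 in F-SEC against 0.729, 0.379 and 0.506 in F-HSC, and at 0.176, 0.237 and 0.180 in Q-SEC against 0.352, 0.522 and 1.08 in Q-HSC. The groups did not overlap in either condition. The log2 difference on this scale was -1.85 ± 0.40 with CCl4 (adjusted p = 0.000680) and -1.72 ± 0.39 with oil (adjusted p = 0.00130). However, 86.1% of all tested genes were called lower in SEC on this scale with CCl4, and 81.5% with oil.

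On the endothelial scale none of the other genes but Mrc1 was called between fractions. For Stab2 the log2 difference was -0.02 ± 0.27 between F-SEC and F-HSC and -0.07 ± 0.27 between Q-SEC and Q-HSC, with intervals from -0.61 to 0.56 and from -0.65 to 0.52. Mrc1 was at -0.79 ± 0.26 between F-SEC and F-HSC (adjusted p = 0.0101), and at -0.48 ± 0.25 between Q-SEC and Q-HSC (adjusted p = 0.0917), without overlap in either. Most genes are lower in SEC on this scale, 86.1% of all tested genes with CCl4 and 81.5% with oil, and its medians over all tested genes were -1.70 and -1.51. The values of Clec1b, -1.85 and -1.72, lay near these medians. Of the 9 genes, 2 were called lower with CCl4 and 1 with oil.

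**Figure D3:**
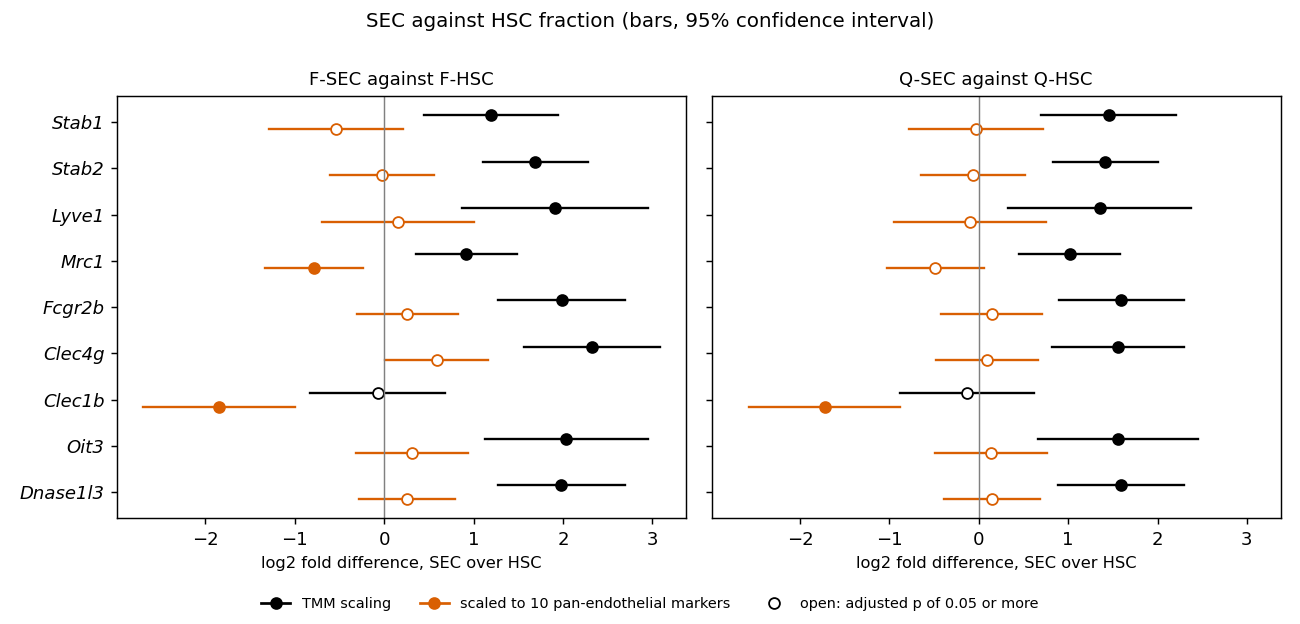
Log2 fold difference of SEC over HSC for the 9 genes with CCl4 (left) and oil (right), under TMM scaling (black) and scaling to 10 pan-endothelial markers (orange), with 95% confidence intervals and open symbols for an adjusted p of 0.05 or more. Clec1b is near 0 under TMM and below -1.7 on the endothelial scale, where the stabilins with oil lie near 0.

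Several of the SEC against HSC calls rested on single libraries. With CCl4, the call of Lyve1 was lost without F-SEC library 1 (1.29, adjusted p = 0.0530) or F-HSC library 3 (1.62, adjusted p = 0.0529), and was 2.50 without F-HSC library 1. That of Mrc1 was lost without F-SEC library 1 (adjusted p = 0.0550), F-SEC library 2 (adjusted p = 0.0795) or F-HSC library 3 (adjusted p = 0.0771), and that of Stab1 without any of these (adjusted p = 0.0586, 0.0743 and 0.0848) or F-HSC library 2 (adjusted p = 0.0804). With oil, Lyve1 was not called without any one of the Q-SEC libraries, Q-HSC libraries 2 and 3, F-SEC library 3 or F-HSC library 2, with adjusted p-values from 0.0566 to 0.157, nor was Oit3 without Q-HSC library 2 (adjusted p = 0.0658) or 3 (adjusted p = 0.0643) or Mrc1 without Q-HSC library 2 (adjusted p = 0.0622).

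Ratios within a library, which no scaling between libraries changes, were taken against Stab2. Per kb of transcript, Stab1 stood at 0.999, 0.973 and 0.965 of Stab2 in F-SEC, and at 0.885, 0.985 and 0.968 in Q-SEC. In HSC the ratio was 1.68, 1.05 and 1.24 in F-HSC, and 0.887, 0.948 and 0.942 in Q-HSC. The ratio lay between 0.885 and 0.999 in the SEC and Q-HSC libraries, and Stab1 exceeded Stab2 in all 3 F-HSC libraries.

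The ratio of Mrc1 to Stab2 was 0.879, 0.887 and 0.805 in F-SEC and 1.07, 0.864 and 0.969 in Q-SEC, and was above 1 in every HSC library, at 1.32, 1.68 and 1.47 in F-HSC and 1.27, 1.07 and 1.5 in Q-HSC. Clec1b stood at 0.463, 0.276 and 0.220 of Stab2 in F-SEC and 0.256, 0.259 and 0.218 in Q-SEC, against 1.06, 0.976 and 1.32 in F-HSC and 0.481, 0.583 and 1.18 in Q-HSC. Macrophages are known to express Stab1 and Mrc1, and mouse Kupffer cells Clec1b. The summed Kupffer cell and macrophage markers were highest in Q-HSC library 3, at 21172 CPM, where Clec1b and its ratio were the highest of Q-HSC, and next in F-HSC library 1, at 15441 CPM, where the ratio of Stab1 was the highest of all. The highest ratio of Clec1b over all libraries was in F-HSC library 3, where the marker sum was 6130 CPM, and that of Mrc1 in F-HSC library 2, where the sum was the lowest of the HSC libraries at 5674 CPM. F-HSC library 1 also had the highest sum of monocyte and scar-associated macrophage markers, at 9759 CPM against 268 to 3272 CPM in the others. All 10 Kupffer cell and macrophage markers were detected in every group, and their part in these ratios was not tested.

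Lyve1 stood higher against Stab2 in the CCl4 libraries, with a ratio of 1.62, 0.540 and 0.708 in F-SEC, against 0.441, 0.377 and 0.389 in Q-SEC, and of 0.991, 0.654 and 0.677 in F-HSC, against 0.494, 0.350 and 0.395 in Q-HSC. The groups did not overlap in either fraction, and library 1 of F-SEC was the highest. Lymphatic endothelium also carries Lyve1. Its 4 markers summed to 14.0 to 24.6 CPM in F-SEC and 8.82 to 61.0 CPM in Q-SEC. In F-HSC the sum was 34.9 to 92.7 CPM, and in Q-HSC it was 22.6 to 24.8 CPM. Of the F-HSC sum, Prox1 alone held 17.1, 63.1 and 86.9 CPM, and Mmrn1 17.2, 4.30 and 5.27 CPM. The 7 hepatocyte markers summed to 10228, 18281 and 25454 CPM in the same libraries. For the 3 lymphatic markers tested, the median log2 change in F-HSC against Q-HSC was -0.10, and none was called. Tbx1 was at 1.88 CPM or less and Ccl21a at 0 in every library. The part of lymphatic endothelium in the ratio of Lyve1 was not tested, nor was that of hepatocytes in the level of Prox1.

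**Figure D4:**
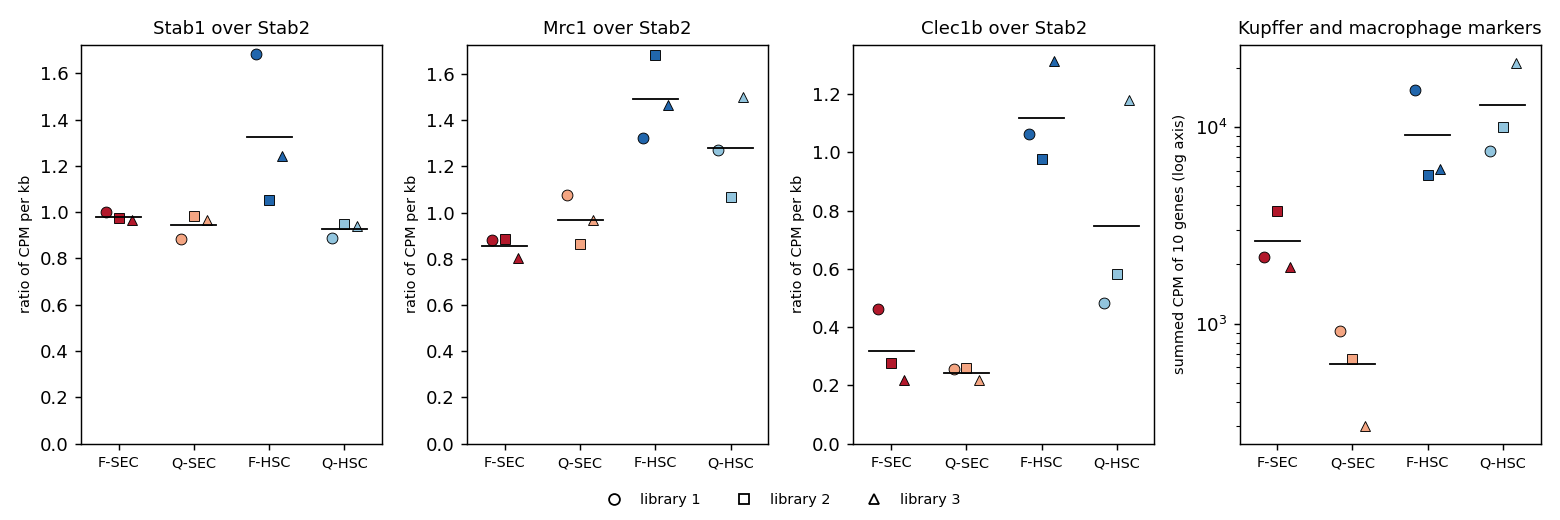
Ratio of CPM per kb of Stab1, Mrc1 and Clec1b to that of Stab2 in each library (linear axes from 0), and the summed CPM of 10 Kupffer cell and macrophage markers (log axis), by group from left to right F-SEC, Q-SEC, F-HSC and Q-HSC, with symbols for the library number and bars for the mean of 3. The ratio of Clec1b is higher in every HSC library than in every SEC library, that of Mrc1 is above 1 in every HSC library, and Q-HSC library 3 is the highest for the marker sum.

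The spread within groups was itself shared. Fcgr2b, Clec4g, Oit3 and Dnase1l3 were highest in library 1 and lowest in library 3 of all 4 groups, Lyve1 was highest in library 1 of all 4, and Stab2 lowest in library 3 of all 4. Over the 12 libraries, with each gene centred on its own mean log2 CPM, the most alike pair was Fcgr2b and Dnase1l3, with a root mean square difference of 0.0972. Fcgr2b and Clec4g (0.149) and Clec4g and Oit3 (0.175) came next of the 36 pairs, and the stabilins differed by 0.247. Clec4g and Clec1b were the least alike (1.13). From the mean profile of the 9 genes Stab2 was the least distant (0.193) and Clec1b the most (0.854), with Lyve1 next (0.480).

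Among 10256 other genes averaging 10 CPM or more, the one nearest to the mean profile was Clec1a (0.145), a C-type lectin of endothelium encoded near Clec1b. The kinase gene Snrk (0.159), the ubiquitin ligase gene Mylip (0.165), the volume-regulated channel subunit gene Lrrc8c (0.167) and the plexin gene Plxnc1 (0.177) came next. Clec1a was at 80.6, 57.9 and 54.8 CPM in F-SEC, against 183, 161 and 135 CPM in Q-SEC, and at 23.4, 19.8 and 14.4 CPM in F-HSC, against 81.5, 58.7 and 52.9 CPM in Q-HSC. Of the single genes, the nearest was Stard8 for Stab1 (0.200), Plxnc1 for Stab2 (0.164), Gmpr for Lyve1 (0.193), Mlxip for Mrc1 (0.208), Robo4 for both Fcgr2b (0.167) and Clec4g (0.187), Gpr182 for Oit3 (0.166) and Enpp6 for Dnase1l3 (0.184).

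Other genes of the same processes were read from lists. Of 24 other scavenger and endocytic receptors, 2 were called lower and 3 higher in F-SEC than in Q-SEC, with a median log2 change of -0.23, where 12.1% of all tested genes were called lower and 11.8% higher. The decoy chemokine receptor Cxcr7, also called Ackr3, rose to 94.8, 100.3 and 101 CPM in F-SEC, against 20.3, 15.3 and 20.8 CPM in Q-SEC (log2 change 2.39 ± 0.42, adjusted p = 0.00401). Lrp1, a large endocytic receptor of many cell types, rose by 2.65 ± 0.52 (adjusted p = 0.00609) and Scarf2 by 2.82 ± 0.70 (adjusted p = 0.0166). In F-HSC against Q-HSC 4 were called lower and 4 higher, where the shares over all tested genes were 17.6% and 14.7%, with Cxcr7 at 2.65 ± 0.44 (adjusted p = 0.00226) and Olr1, a receptor of oxidized LDL, at 3.60 ± 0.65 (adjusted p = 0.00322).

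Other C-type lectins went in both directions. Of 33 tested, 5 were called lower and 12 higher in F-SEC than in Q-SEC, and 12 lower and 4 higher in F-HSC than in Q-HSC. For this and the following lists the shares of all tested genes are those given for the scavenger receptors. Clec9a, a lectin best known from dendritic cells and encoded on chromosome 6 as is Clec1b, fell to 21.3, 23.6 and 21.8 CPM in F-SEC, against 91.6, 155 and 110 CPM in Q-SEC (log2 change -2.42 ± 0.24, adjusted p = 0.000281), and by 2.84 ± 0.25 in F-HSC (adjusted p = 0.000206). Cd209b, a SIGN-R1 lectin, fell by 1.28 ± 0.22 in F-SEC (adjusted p = 0.00353) and by 2.20 ± 0.25 in F-HSC (adjusted p = 0.000601). Cd207, known as langerin, rose by 3.44 ± 0.58 in F-SEC (adjusted p = 0.00315), beside the higher sum of Kupffer cell and macrophage markers in that group.

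Of 7 other Fc receptors tested, the activating receptors Fcgr1 (2.79 ± 0.59, adjusted p = 0.00849) and Fcgr3 (2.40 ± 0.49, adjusted p = 0.00743), both of myeloid cells, were called higher in F-SEC than in Q-SEC, and only Fcgrt, the neonatal Fc receptor gene, was called lower (-0.67 ± 0.19, adjusted p = 0.0288). In F-HSC the only one called was Fcgrt, which fell by 1.07 ± 0.19 (adjusted p = 0.00313). Fcer1g, the signalling chain of the activating receptors, changed by 0.61 ± 0.37 in SEC (adjusted p = 0.242) and -0.52 ± 0.36 in HSC (adjusted p = 0.292).

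Among the hyaluronan genes, which make, break down or bind the main ligand of Stab2 and Lyve1, 2 of 10 tested were called lower and 3 higher in each fraction. Tmem2, which encodes a cell-surface hyaluronidase in mouse, fell to 701, 670 and 579 CPM in F-SEC, against 1526, 1454 and 1369 CPM in Q-SEC (log2 change -1.16 ± 0.20, adjusted p = 0.00311), and by 1.12 ± 0.20 in F-HSC (adjusted p = 0.00274). Vcan, a hyaluronan-binding proteoglycan gene, rose by 2.86 ± 0.56 in F-SEC (adjusted p = 0.00610) and 2.33 ± 0.54 in F-HSC (adjusted p = 0.00896). Tnfaip6, which links hyaluronan to other matrix proteins, rose by 3.39 ± 0.76 (adjusted p = 0.0102) and 3.67 ± 0.75 (adjusted p = 0.00541) at levels of at most 5.27 CPM and of 0 to 0.432 CPM in Q-SEC.

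Of 25 genes of clathrin adaptors and the early endosome, 7 were called lower and 2 higher in F-SEC, and 3 lower and 3 higher in F-HSC, with medians of -0.07 and -0.02. Eea1, an early endosome tether, fell by 1.17 ± 0.22 in F-SEC (adjusted p = 0.00488) and the adaptor Numb by 0.99 ± 0.18 (adjusted p = 0.00392), while Ehd2, a protein of caveolae, rose by 2.26 ± 0.37 (adjusted p = 0.00281). Of 8 other DNases only Dffb, the apoptotic nuclease, was called in F-SEC (-0.74 ± 0.22, adjusted p = 0.0349).

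The 5 genes of protein ligands were Pdpn, Sparc, Postn, Tgfbi and Lag3. Pdpn, which encodes podoplanin, the ligand of Clec1b, rose to 7.40, 3.29 and 4.75 CPM in F-SEC, against 0.744, 0.523 and 0.863 CPM in Q-SEC (log2 change 2.84 ± 0.47, adjusted p = 0.00294), and to 11.7, 9.42 and 14.9 CPM in F-HSC, against 2.64, 1.63 and 0.783 CPM in Q-HSC (2.81 ± 0.43, adjusted p = 0.00168). Postn (4.24 ± 0.98, adjusted p = 0.0121) and Tgfbi (2.07 ± 0.65, adjusted p = 0.0409) were called higher in F-SEC. Q-SEC library 1 had 64.1 CPM of Postn against 5.44 and 3.67 CPM in the other Q-SEC libraries. It likewise had 348 CPM of Tgfbi against 67.5 and 35.3 CPM. Lag3, which encodes a protein ligand of Clec4g, was called lower in F-HSC (-1.84 ± 0.48, adjusted p = 0.0154).

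Of 18 other genes known from sinusoidal endothelium 11 were called lower and none higher in F-SEC than in Q-SEC, with a median log2 change of -1.01, and 13 lower and none higher in F-HSC than in Q-HSC, with a median of -1.45. Of all tested genes 12.1% were called lower in F-SEC and 17.6% in F-HSC. F8, the coagulation factor VIII gene, was at 247, 324 and 282 CPM in F-SEC, against 1089, 1954 and 1725 CPM in Q-SEC (log2 change -2.48 ± 0.32, adjusted p = 0.000980). Kdr, the gene of VEGF receptor 2, fell by 1.57 ± 0.27 (adjusted p = 0.00337) and Plxnc1 by 1.45 ± 0.25 (adjusted p = 0.00309), and Cyp4b1 fell by 2.42 ± 0.36 in F-HSC (adjusted p = 0.00143).

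The 9 genes are protein-coding on 7 chromosomes of mm10. Stab1 lies at chr14:31139017-31168641 and shares 108 bases with Nt5dc2 on the other strand, and a cDNA clone entry within it, at chr14:31139019-31143725, held 10410, 8458 and 6419 counts in F-SEC, against 19220, 23785 and 20049 counts in Q-SEC. Stab2 lies at chr10:86841210-87007942 and overlaps 5 antisense entries of GENCODE. Fcgr2b (chr1:170960559-170976071) and Clec4g (chr8:3716071-3720651) each overlap 1 gene entry of GENCODE on the other strand, and Mrc1 (chr2:14229414-14332023) holds the microRNA gene Mir511. Where the use of strand in counting is not given, reads of such overlapping genes cannot be told apart. Lyve1 (chr7:110850607-110862953), Clec1b (chr6:129397297-129405413), Oit3 (chr10:59422960-59441779) and Dnase1l3 (chr14:7965190-7994182) overlap no other entry.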

How the data were processed

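RNA-seq of 12 libraries, 3 for each of F-SEC, Q-SEC, F-HSC and Q-HSC, was analysed from the deposited table. Per the submitters' processing notes, reads were made with bcl2fastq (version not given) and aligned to mm10 with TopHat2 2.0.13. The counts are the authors' deposited read counts per entry, and the counting tool and its use of strand are not given in the sources used here. The RPKM values, which the authors scaled to depth and entry length, were not used for tests, and the deposited entry lengths were used for CPM per kb. Of 56826 lines, 1 without values is not analysed here, and 33353 cDNA clone entries with 16.3 to 24.9% of counts were set aside.

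The 23472 gene entries were filtered (filterByExpr), TMM-scaled (factors 0.899 to 1.09) and fitted with edgeR 4.0.16 in R 4.3.3 (robust quasi-likelihood, 1 coefficient per group, 8 residual degrees of freedom, Benjamini-Hochberg over 14489 genes). The code was tested on simulated counts, where 2-fold and 4-fold changes were recovered in 30% and 91% of genes for F-SEC against Q-SEC (over 14289 genes). For the difference of the CCl4 changes the shares were 5% and 62% (over 14278 genes). Replicate libraries differed by a chi-square per degree of freedom of 20.4 to 195, so none was a duplicate. Titles number the libraries 2 and 3 of a group, and the unnumbered one was called 1. Deviations of same-numbered libraries from their group means correlated, across genes, at 0.31, 0.25 and 0.16 for F-SEC with Q-SEC and at 0.47, 0.45 and 0.43 for F-SEC with F-HSC, which by the rule of 0.1 counts as pairing from the data alone. For the other comparisons some correlations were below 0.1 (F-HSC with Q-HSC -0.09, 0.24 and -0.28). The members, lists and tests were chosen with earlier results of these data known. Beside all 9 members, up to 3 genes per list with the lowest adjusted p in SEC and 2 in HSC were named, and the genes of most similar profile, of which 1 is not reported here. Alternatives were RLE scaling, scaling to 10 pan-endothelial markers, no low-count filter, a filter at 10 CPM, clone entries tested with genes, an adjusted p under 0.01, only the libraries compared, a replicate block, each library left out, libraries 2 and 3 only, limma-voom (limma 3.58.1) and DESeq2 1.42.0.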

Additional observations from a re-analysis of the deposited data

Results flagged for a closer look

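Of the pathway lists, 3 genes were called for a difference between the CCl4 changes in the 2 fractions, Cd209a and Clec10a as higher and Hyal1 as lower in SEC than in HSC, as were Flt3 and Des of the marker lists as higher. Of these only Hyal1 came under the rule for named genes, and the others are named after their values were seen. Hyal1, which encodes a lysosomal hyaluronidase, differed by a log2 value of -1.47 ± 0.29 between the CCl4 changes of SEC and HSC (edgeR adjusted p = 0.0429). It was at 17.0, 24.5 and 24.8 CPM in F-SEC, against 27.7, 33.6 and 24.8 CPM in Q-SEC, and at 29.9, 25.2 and 24.5 CPM in F-HSC, against 13.4, 14.1 and 9.73 CPM in Q-HSC. Its log2 change was -0.38 ± 0.20 in SEC (adjusted p = 0.186) and 1.09 ± 0.20 in HSC (adjusted p = 0.00358). The call rested on single libraries, since without F-SEC library 2 or 3, Q-SEC library 2 or 3 or F-HSC library 3 the count of all tested genes called lower for this difference was 0, against 34 with all libraries, and it was also 0 at an adjusted p under 0.01.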

How the results depend on the processing

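The number of the 9 genes called was 8 in each comparison of 2 groups and 0 for the difference of the CCl4 changes. For F-SEC against Q-SEC it was 4 with scaling to the pan-endothelial markers, 5 with clone entries tested together with genes and 4 at an adjusted p under 0.01, and between 4 and 8 with 1 library left out. For F-HSC against Q-HSC it was 5 with endothelial scaling and between 6 and 9 with 1 library left out. For Q-SEC against Q-HSC it was 1 with endothelial scaling, 5 at an adjusted p under 0.01 and between 5 and 8 with 1 library left out, and for F-SEC against F-HSC 2, 5 and between 5 and 8. The difference gave 0 under each alternative.

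With the replicate number as a replicate block, 8 genes were called for the CCl4 change in SEC and 9 in HSC, and 8 between fractions with oil and 8 with CCl4, and the block changed no call but that of Lyve1 in HSC (-1.003, adjusted p = 0.0156). The block also raised the calls over all 14489 tested genes in F-SEC against Q-SEC. These were 2255 lower and 2076 higher, against 1750 and 1705 without it. Every F-SEC library correlated best with its own number in Q-SEC and in F-HSC, a hint from the data and not the design.

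Values that changed sign came from endothelial scaling or lay within their SE of 0 in the main fit. The latter held also for the difference of the CCl4 changes of Lyve1, at 0.56 ± 0.65. With endothelial scaling Lyve1 turned to 0.45 in SEC and 0.20 in HSC. Q-SEC against Q-HSC gave -0.0327 for Stab1, -0.0674 for Stab2, -0.10 for Lyve1 and -0.48 for Mrc1, and F-SEC against F-HSC -0.54 for Stab1, -0.0225 for Stab2 and -0.79 for Mrc1. The difference of the changes turned to -0.12 for Clec1b on this scale, to -0.00498 with clone entries and to -0.0375 with limma-voom, and that of Stab1 to 0.14 with libraries 2 and 3 only. With 1 library left out it ran from -0.53 to 0.33 for Stab1, from -0.0623 to 1.17 for Lyve1, from -0.32 to 0.0907 for Mrc1 and from -0.29 to 0.36 for Clec1b. Clec1b ran from -0.30 to 0.20 in Q-SEC against Q-HSC and from -0.42 to 0.21 in F-SEC against F-HSC.

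Of 1026 values over all members and alternatives, 911 kept their direction and side of the threshold, 82 lost and 6 gained a call, and 27 changed sign. For F-SEC against Q-SEC, Oit3 lost its call in 9 of 12 omissions, Clec1b in 6 and Clec4g in 5, while Stab2, Mrc1, Fcgr2b and Dnase1l3 lost it in none. The cause of these shifts was not tested, and an omission also leaves fewer libraries. Over all genes the counts for F-SEC against Q-SEC, 1750 lower and 1705 higher, became 78 and 6632 with endothelial scaling and 510 and 752 at an adjusted p under 0.01, and those of the difference, 34 and 82, became 340 and 571 with DESeq2. Counting error is small for the 9 genes at these depths, and floors cover counting error only.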
